A study of Arabidopsis thaliana with 6 samples.

Results

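The Aux/IAA and ARF genes encode the central pair of protein families in the nuclear auxin response. Of the 33690 features in the deposited expression table, 43 were taken by their gene identifiers: 28 Aux/IAA genes and 15 ARF genes. Stem RNA came from wild-type *Arabidopsis thaliana* of the Columbia accession and from the *hdt1* mutant, at 35 days after flowering and without treatment. The mutant carries a T-DNA insertion in HDT1 (AT3G44750), a plant-specific histone deacetylase, and it is not labelled which of the study's insertion lines was sequenced. Each genotype has 3 libraries, numbered 1, 2 and 4 in the table, whose columns could be tied to a genotype by name but not to a single labelled sample. Nothing in the labels says that the samples of a genotype were grown apart, so a p-value here covers no more than the spread among these libraries, which may be technical.

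Auxin binds between a receptor of the TIR1/AFB family and an Aux/IAA protein, and the Aux/IAA protein is then marked with ubiquitin and degraded. An Aux/IAA protein that is not degraded sits on ARF proteins and recruits TOPLESS co-repressors, which keep the ARF targets silent. ARF proteins bind the auxin response element in promoters and either activate or repress, depending on the member. Many Aux/IAA genes are themselves induced by auxin, so that the repressors are renewed as they are lost. In the stem vasculature this machinery acts in the procambium and cambium. ARF5 is known for starting vascular strands, a role that was not examined in these mature stems.

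The part of an Aux/IAA protein that the receptor holds is the degron, whose core reads glycine, tryptophan, proline, proline. The core was found in the longest coding sequence of 22 of the 28 Aux/IAA genes and in none of IAA20, IAA30, IAA31, IAA32, IAA33 and IAA34. The codons of the core are shown in capitals, with 3 codons before and 4 after, for the Aux/IAA genes with the highest levels or without overlap between the genotypes that the results turn on. Sequences and coordinates are from RefSeq and TAIR10.1, and the deposited table gives no coordinates and no build.
IAA2, chr3:8181384-8181416, minus strand: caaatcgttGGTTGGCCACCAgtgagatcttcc
IAA19, chr3:5264307-5264339, plus strand: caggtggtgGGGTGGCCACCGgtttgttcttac
IAA9, chr5:26255104-26255136, plus strand: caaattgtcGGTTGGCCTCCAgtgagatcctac
IAA16, chr3:1289727-1289759, minus strand: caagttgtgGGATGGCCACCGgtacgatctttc
IAA28, chr5:9033812-9033844, plus strand: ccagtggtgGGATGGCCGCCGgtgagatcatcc

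The auxin response element was searched as TGTCTC and, in its form that ARF proteins bind more tightly, as TGTCGG, on both strands and from 250 bases before to 50 after the annotated gene start. These letter strings cannot overlap the same bases on one strand. TGTCTC was present in 11 of 28 Aux/IAA windows (39.3%) and 1 of 15 ARF windows (6.67%, ARF3), against 14.2% of 27444 protein-coding genes. TGTCGG was present in 6 Aux/IAA windows (21.4%) and 2 ARF windows (13.3%), against 5.12% of all. Over 1000 bases before the start the TGTCTC shares were 60.7% for Aux/IAA, 40% for ARF and 39.6% for all protein-coding genes. The window of IAA19 is printed because it holds 3 copies of TGTCTC, in capitals, and because IAA19 is among the members that differed most between the genotypes.
IAA19 promoter, chr3:5263751-5264050, plus strand: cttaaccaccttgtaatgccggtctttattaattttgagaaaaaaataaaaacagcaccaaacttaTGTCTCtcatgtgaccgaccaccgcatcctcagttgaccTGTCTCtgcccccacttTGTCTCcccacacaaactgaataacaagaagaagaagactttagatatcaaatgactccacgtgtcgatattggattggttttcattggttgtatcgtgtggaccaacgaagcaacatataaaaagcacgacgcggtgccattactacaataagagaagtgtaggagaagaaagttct

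Among the ARF genes, ARF10, ARF16 and ARF17 are known targets of miR160, ARF6 and ARF8 of miR167, and ARF2, ARF3 and ARF4 of the trans-acting small RNA called tasiR-ARF. The mature miRNAs are shown with their seed, bases 2 to 8, in capitals, and the ARF sites with the bases that match the miRNA's reverse complement in capitals, wobble pairs counted as mismatches. All 5 sites are in coding sequence.
miR160a, chr2:16340282-16340302, plus strand: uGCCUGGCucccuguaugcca
ARF10 site, chr2:12115741-12115761, plus strand: aGGaATACAGGGAGCCAGGCA
ARF16 site, chr4:14704141-14704161, minus strand: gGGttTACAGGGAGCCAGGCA
ARF17 site, chr1:29274189-29274209, plus strand: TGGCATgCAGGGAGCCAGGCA
miR167a, chr3:8108090-8108110, plus strand: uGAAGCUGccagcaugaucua
ARF6 site, chr1:10686478-10686498, minus strand: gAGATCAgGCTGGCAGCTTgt
ARF8 site, chr5:14633841-14633861, plus strand: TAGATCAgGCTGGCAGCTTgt
The ARF10, ARF16 and ARF17 sites differ from a full match to miR160a at 2, 3 and 1 bases, whereas the best window of the other 12 ARF genes differs at 8 to 9. The ARF6 and ARF8 sites differ from a full match to miR167a at 4 and 3 bases, against 7 to 9 in the other 13. The small RNAs themselves were not measured in this table.

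Values are FPKM, fragments scaled by transcript length and by the mapped fragments of the library, so levels of different genes are compared per length. The steps between low values show the worth of a single read, and the library totals that follow run from 40505052 to 45230842 reads. HDT1 itself read 53.3, 65.3 and 56.9 FPKM in the wild type against 4.97, 19.8 and 20.5 in *hdt1*, so the targeted gene was low in each library of the mutant. Within either genotype libraries 2 and 4 almost coincided (r = 0.995 across genes on the log2 scale), yet their difference was larger than counting alone gives, with a median chi-square per gene of 2.29 in the wild type and 2.47 in *hdt1* against 0.455. Library 1 of the wild type resembled library 1 of *hdt1* more (r = 0.977) than it resembled any other library, and the remaining r values ran from 0.853 to 0.906. This split has no name in the labels, so results are also split into library 1 on one side and libraries 2 and 4 on the other.

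The labelled tissue was checked with marker genes. The vascular markers were present, and 4 of 6 xylem genes and all 3 phloem genes reached 1 FPKM in every library. Summed xylem markers ranged from 13.8 to 36.7 FPKM in the wild type and from 94.0 to 97.5 in *hdt1*, and summed phloem markers from 101 to 131 and from 172 to 182. The 5 seed genes together reached 164.6 and 161.3 FPKM in wild-type libraries 2 and 4 but were at 0 in wild-type library 1 and at 0.366 to 9.09 in *hdt1*. In libraries 2 and 4, SESA1 alone of the 5 was higher in *hdt1*, at 8.961 and 7.505 FPKM against 5.084 and 4.671. Of the 3 cambium genes 1 reached 1 FPKM in every library. Their sum ran from 13.6 to 25.3 FPKM in the wild type and from 15.1 to 38.8 in *hdt1*. WOX4, a regulator of cambial division, was at 0.299 and 0.183 in wild-type libraries 2 and 4 against 2.74 and 2.135 in *hdt1*. ANT went the other way in these libraries, at 2.051 and 2.241 in the wild type against 1.269 and 0.669. The 3 photosynthesis genes summed to 1757 to 3210 FPKM and 1490 to 3098, with library 1 the highest in both genotypes. The 3 epidermis markers together were at 13.3 to 14.4 FPKM in the wild type against 4.80 to 12 in *hdt1*. Singly, ATML1 and PDF2 overlapped between the genotypes, and PDF2 was highest in *hdt1* library 1, at 6.729 FPKM. PDF1 was lower in each *hdt1* library, but it was also low in wild-type library 1, at 0.833 FPKM against 5.923 and 5.327 in wild-type libraries 2 and 4. The 4 floral organ genes and the 2 tapetum genes together stayed under 2 and 1 FPKM, respectively, and the tapetum gene A9 was at 0 throughout. More cells of a type and more RNA per cell cannot be told apart in whole stems, and the part of these marker differences in the results on the auxin genes was not tested.

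All 15 ARF genes and 19 of the 28 Aux/IAA genes reached 1 FPKM in at least 3 libraries and were kept for testing. The 9 Aux/IAA genes that did not were IAA5, IAA6, IAA17, IAA29, IAA30, IAA31, IAA32, IAA33 and IAA34, none of them above 1.91 FPKM in any library. Of the 6 genes without the degron core, IAA20 alone was kept, at 0.246 to 1.61 FPKM, so the Aux/IAA RNA of these stems came almost wholly from genes that encode the core. Among the genes left out, IAA31 did not overlap between genotypes and was lower in *hdt1*, but at 0.148 FPKM or less. It had at most 5 reads in a library and 1 read in library 1 of either genotype, so this is no difference to read. IAA17, known as AXR3, was at 0.454 FPKM or less next to its chromosomal neighbour IAA3, known as SHY2, at 18.1 to 27.7 FPKM. The neighbours IAA14, a repressor of lateral root formation, and IAA1 were at 1.58 to 3.91 and 0.964 to 8.37 FPKM.

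The highest Aux/IAA gene was IAA9 (AT5G65670), with a mean of 203 ± 50 FPKM (SD, n = 6 libraries), followed by IAA16, IAA2, IAA27 and IAA26. Its tomato counterpart is known for restraining fruit set. This order pools both genotypes: in the wild type alone IAA16 (mean 197.6 FPKM) was above IAA9 (163.5), and IAA2 (62.0) was below IAA28, IAA27, IAA26, IAA13 and IAA8. The ranges of every neighbouring gene in the order of the Aux/IAA genes overlapped except those of IAA8 and IAA18, where the level stepped down from 58.8 FPKM or more to 48.3 or less. These 5 highest genes carried 59.0 to 64.7% of the summed Aux/IAA level of a library.

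The ARF genes were led by ARF2 (AT5G62000), a repressor of growth and seed size, with a mean of 169 ± 38.6 FPKM (SD, n = 6 libraries). ARF4 came next, at 49.7 to 114 FPKM, and the step down from it to ARF6 was the only one in the ARF order where neighbours did not overlap. ARF2 alone carried 28.7 to 44.0% of the summed ARF level, and with ARF4, ARF6, ARF1 and ARF3 the share was 75.3 to 78.0%. ARF5, or MONOPTEROS, was the lowest of the 15, at 2.84 to 3.71 FPKM.

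**Figure D1:**
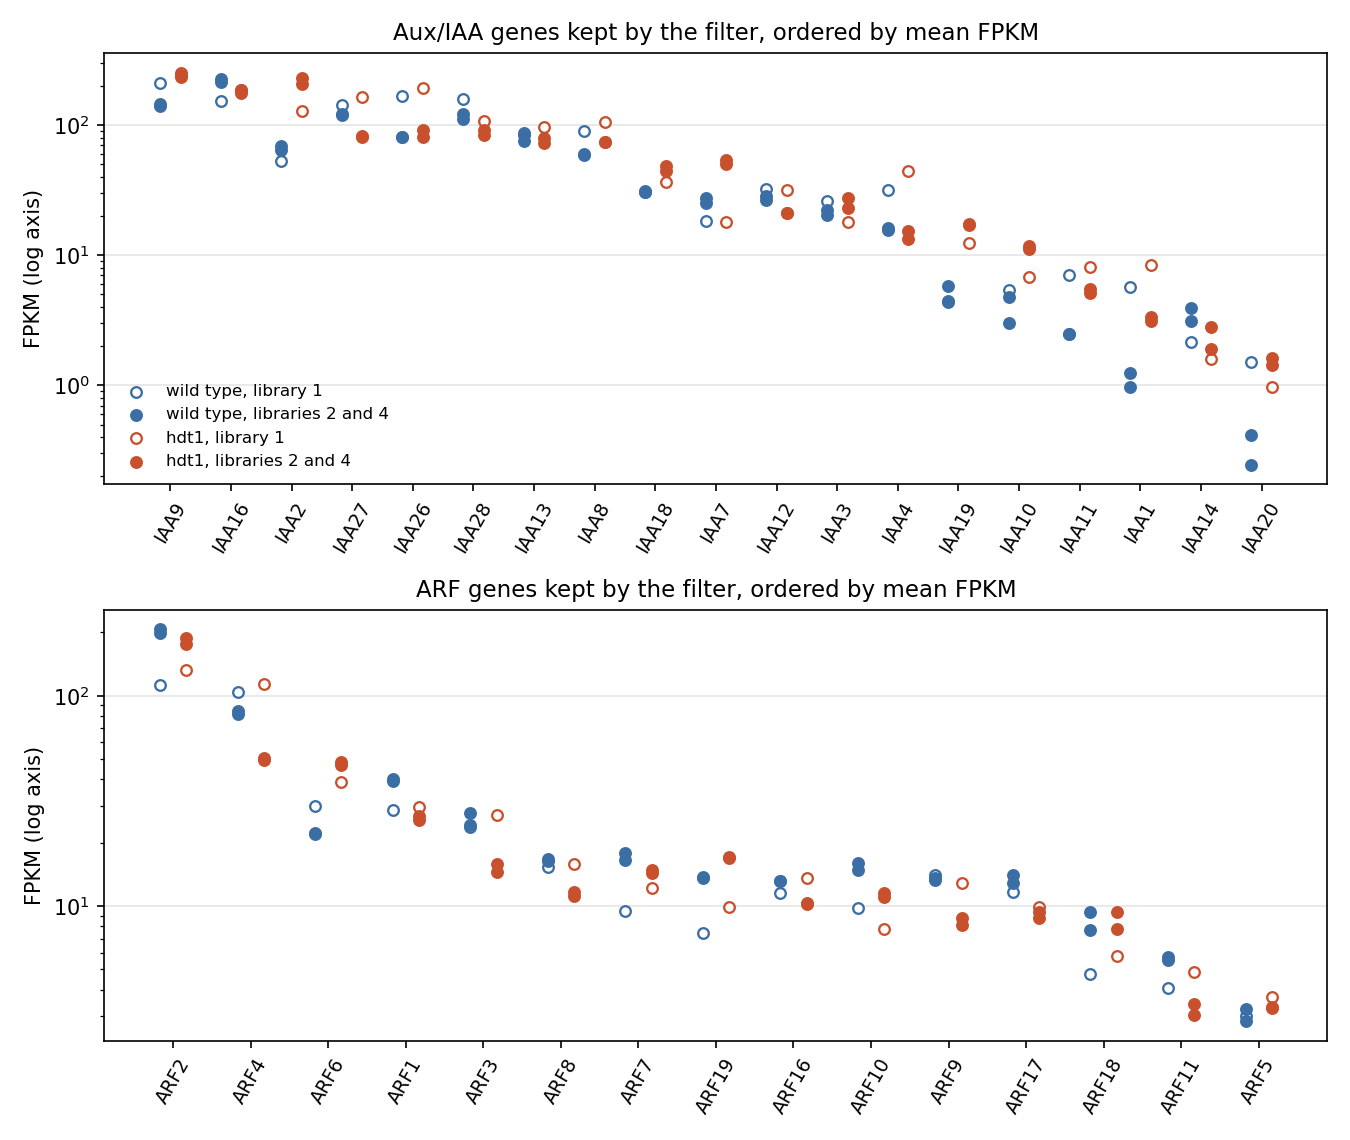
FPKM on a log axis (vertical) of the 19 Aux/IAA genes (top) and 15 ARF genes (bottom) kept for testing, ordered from left to right by mean FPKM, with 1 point per library. Open points are library 1, filled points libraries 2 and 4, and for several genes, among them ARF2, ARF4 and IAA26, the open points of both genotypes sit together, away from the filled ones.

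The question of the comparison is how the mutant stem differs from the wild-type stem in these repressors and factors. IAA2 and IAA19, both auxin-induced repressors, had the largest differences of the 34 kept members, with levels about 3 times as high in *hdt1*. IAA9, IAA10 and IAA18 were also above the wild type in each *hdt1* library, and so were the activators ARF6 and ARF5, while IAA28, ARF9 and ARF17 were below it. In the limma fit across 17906 genes no gene passed at a Benjamini-Hochberg adjusted p under 0.05 (0% of all genes), and 0 of the 43 genes did. At an unadjusted p under 0.05, the fit had 5 Aux/IAA genes higher and 0 lower in *hdt1*, and 1 ARF gene higher and 1 lower, against 7.78% of all genes higher and 5.96% lower. No gene passed either when recovered reads were fitted with voom in limma (0 genes after adjustment). Among 19 kept Aux/IAA genes each *hdt1* library was above each wild-type library for 5 (26.3%) and below for 1 (5.26%), against 8.5% and 10.9% of all genes tested. For the 15 ARF genes it was 2 above and 2 below (13.3% each). Each of these 10 genes was at 2.84 FPKM or more in each library, so none of them was kept through 1 genotype alone. The exact permutation test over the samples gave p = 0.1 (two-sided) for each of the 10, which is the smallest that 3 against 3 can give.

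IAA2 (AT3G23030, chromosome 3, 8180646 to 8182095, minus strand) was at 53.2 FPKM in wild-type library 1, at 68.4 in library 2 and at 64.5 in library 4. In *hdt1* the same numbers held 127, 206 and 230.3. The lowest mutant library was thus well above the highest wild-type library, and libraries 2 and 4 were above library 1 in both genotypes. The means were 62.0 ± 7.86 and 187.9 ± 53.8 FPKM (SD, n = 3 each), a ratio of 3.03 (library 1 alone 2.39, libraries 2 and 4 alone 3.29). The log2 fold change was 1.55 ± 0.26 (SE; limma with Benjamini-Hochberg adjusted p = 0.215). The counts behind these levels were 2130 to 2790 reads in the wild type and 5423 to 9201 in *hdt1*. IAA2 made up 4.33 to 6.56% of the summed Aux/IAA level in the wild-type libraries and 8.96 to 18.0% in the *hdt1* libraries.

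IAA19 (AT3G15540, chromosome 3, 5264001 to 5265695, plus strand), known as MSG2 from mutants that fail to bend their hypocotyls, was at 4.41, 5.82 and 4.40 FPKM in the wild type against 12.4, 17.3 and 17.1 in *hdt1*. It is a much lower gene than IAA2, but the groups were as clearly apart. The ratio of the means was 3.2 (library 1 alone 2.81, libraries 2 and 4 alone 3.36). The log2 fold change of 1.49 ± 0.20 had the smallest p of the 34 kept members (limma with Benjamini-Hochberg adjusted p = 0.157). IAA2 and IAA19 are the Aux/IAA genes the study itself names, and it chose them on these samples. Their differences in this table are therefore not independent evidence. The study also reported both as higher in *hdt1* stems by quantitative RT-PCR, which the expression table does not hold.

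IAA9 stood at 208, 144 and 139 FPKM in the wild type against 252, 234 and 241 in *hdt1*. The mutant libraries were close to each other, and the wild-type library 1 came nearest to them. The ratio was 1.48 over all libraries, 1.21 in library 1 and 1.68 in libraries 2 and 4, with a log2 fold change of 0.59 ± 0.21 (limma with Benjamini-Hochberg adjusted p = 0.32). IAA18, also called CRANE, of which stabilized mutant forms disturb embryo and lateral root formation, was at 30.3, 31.2 and 30.4 FPKM in the wild type against 36.5, 44.0 and 48.3 in *hdt1*. IAA10, known with ARF9 from the embryo suspensor, was at 5.38, 4.76 and 2.99 FPKM in the wild type against 6.84, 11.1 and 11.8 in *hdt1*. For both genes the step between genotypes was smallest in library 1, where the ratio was 1.21 for IAA18 and 1.27 for IAA10. In libraries 2 and 4 it was 1.5 and 2.95. Their log2 fold changes were 0.46 ± 0.16 and 1.02 ± 0.28 (limma with Benjamini-Hochberg adjusted p = 0.317 and 0.287). The annotated span of IAA10 shares 619 bases with a gene on the opposite strand, and without a stated strand setting reads in these shared bases cannot be assigned to 1 of the 2 genes. Bases are shared with another annotated gene for 13 of the 43 members, IAA3 (640 bases), IAA13 (1176 bases) and ARF7 (254 bases) among them.

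IAA28 (AT5G25890), of which stabilized mutant forms block lateral roots, was the only kept Aux/IAA gene that was lower in each *hdt1* library. It was at 158, 120.3 and 111 FPKM in the wild type against 107, 84.4 and 90.8 in *hdt1*. The ratio was 0.724, and it was similar in library 1 (0.677) and in libraries 2 and 4 (0.756). The log2 fold change was -0.45 ± 0.20 (limma with Benjamini-Hochberg adjusted p = 0.382). IAA28, like IAA19, holds TGTCTC in its promoter window, which is so for 2 of the 6 Aux/IAA genes without overlap and 5 of the 19 kept. The copy of IAA28 lies after the annotated gene start, whereas those of IAA19 lie before it.

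The other highest repressors did not separate by genotype. IAA16, of which a stabilized mutant form lowers auxin and abscisic acid responses, was at 152, 226 and 215 FPKM in the wild type against 186, 177 and 184 in *hdt1*. IAA27 was at 143, 119.7 and 122 FPKM in the wild type against 165, 81.9 and 80.8 in *hdt1*. IAA26, which together with IAA27 is known for binding a tobacco mosaic virus protein, was at 168, 80.3 and 80.9 FPKM in the wild type against 190.4, 81.1 and 91.3 in *hdt1*. For IAA26 the library number set the level, with library 1 about 2 times libraries 2 and 4 in either genotype. For IAA27 the genotypes differed in opposite directions, with a ratio of 1.15 in library 1 and 0.673 in libraries 2 and 4. IAA7, known as AXR2, likewise had a ratio of 0.99 in library 1 and 1.99 in libraries 2 and 4, and its chromosomal neighbour is IAA2. Over the 13 kept Aux/IAA genes with overlap the log2 fold changes lay between the -0.38 of IAA14 and the 0.84 of IAA1.

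**Figure D2:**
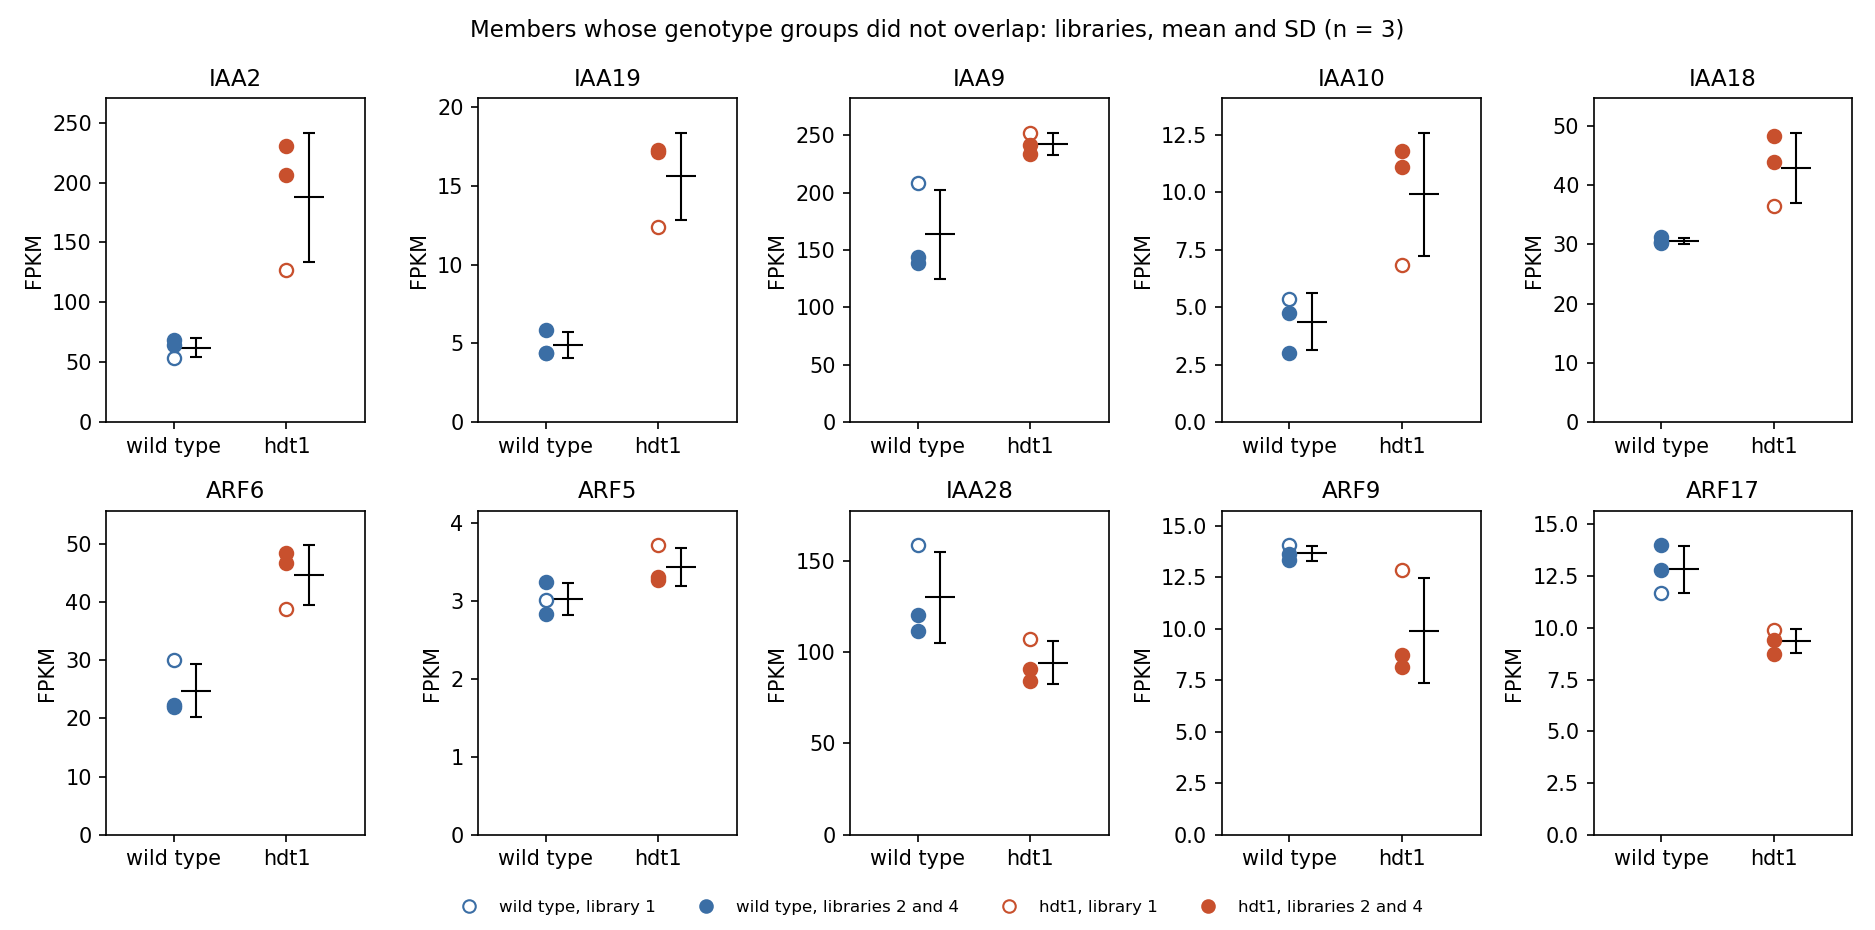
FPKM (vertical axis, from 0) of the 10 members whose genotype groups did not overlap, with wild type in blue and *hdt1* in red, open points for library 1 and filled points for libraries 2 and 4. The bars are the mean and SD over 3 libraries, and IAA2 and IAA19 show the widest gaps between the groups.

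Among the ARF genes that activate transcription, ARF6 (AT1G30330, chromosome 1, 10685822 to 10690988, minus strand) stood apart. ARF6, which acts with ARF8 in flower maturation, was at 30.0, 22.2 and 21.9 FPKM in the wild type against 38.8, 48.3 and 46.7 in *hdt1*. Library 1 was highest in the wild type and lowest in *hdt1*, and the groups still did not overlap. The means were 24.7 ± 4.57 and 44.6 ± 5.11 FPKM (SD, n = 3 each), a ratio of 1.81 (library 1 alone 1.29, libraries 2 and 4 alone 2.15). The log2 fold change was 0.84 ± 0.19 (limma with Benjamini-Hochberg adjusted p = 0.251). ARF8, its partner under miR167, had a ratio of 1.04 in library 1 and 0.689 in libraries 2 and 4, with a log2 fold change of -0.32 ± 0.18. ARF5 was at 3.01, 3.25 and 2.84 FPKM in the wild type against 3.71, 3.31 and 3.27 in *hdt1*. Its groups were apart by only a narrow margin, with a ratio of 1.13 and a log2 fold change of 0.14 ± 0.16. The activators ARF7 and ARF19, which act together in lateral root formation, overlapped between the genotypes, with ratios of 0.943 and 1.26.

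Of the 10 ARF genes known as repressors, 9 had a negative log2 fold change and 1, ARF18, a positive one, none past the threshold. Their median was -0.37, against 0.14 for the 5 activators and -0.08 for all 17906 genes, of which 58.6% were negative. In library 1, however, 7 of the 10 were positive (median 0.16), against 45.6% of all genes tested. For libraries 2 and 4 the repressors had 9 negative values (median -0.55), against 57.7% of all genes. ARF17, a miR160 target, was at 11.7, 12.8 and 14 FPKM in the wild type against 9.88, 9.42 and 8.74 in *hdt1*. It was lower in the mutant in library 1 (ratio 0.845) as well as in libraries 2 and 4 (0.677). Its log2 fold change was -0.42 ± 0.15 (limma with Benjamini-Hochberg adjusted p = 0.323). ARF9, a repressor known from the embryo suspensor, was at 14.1, 13.3 and 13.6 FPKM in the wild type against 12.8, 8.75 and 8.16 in *hdt1*. Its library 1 lay just below the wild type, with a ratio of 0.914, whereas the ratio in libraries 2 and 4 was 0.627. The miR160 targets ARF10 and ARF16 had ratios of 0.751 and 0.902, with overlapping groups.

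The highest repressors of the family changed sides with the library. ARF2 was at 112, 199 and 207 FPKM in the wild type against 132, 189 and 176 in *hdt1*. ARF4, which with ARF3 sets the lower side of leaves, was at 104, 82.1 and 84.4 FPKM in the wild type against 114, 50.7 and 49.7 in *hdt1*. ARF3 was at 23.7, 24.2 and 27.6 FPKM in the wild type against 27.2, 15.9 and 14.6 in *hdt1*. In these 3 targets of tasiR-ARF *hdt1* was thus above the wild type in library 1 and below it in libraries 2 and 4, where ARF3 and ARF4 stood at ratios of 0.588 and 0.603. ARF1, which can replace ARF2 in part, was at 28.7, 39.3 and 40.3 FPKM in the wild type against 29.5, 25.6 and 26.9 in *hdt1*. It was level between genotypes in library 1 and lower in *hdt1* in libraries 2 and 4, with a ratio of 0.659.

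Over the whole families the difference was read in each library set as well, and no test of a difference between the families was run. The median log2 fold change of the 19 Aux/IAA genes was 0.28 (library 1 alone 0.20, libraries 2 and 4 alone 0.31). The median of the 15 ARF genes was -0.32 over all libraries, but it was 0.21 for library 1 and -0.41 for the rest. The medians of all genes tested were -0.08, -0.03 and -0.11. In library 1, 12 of 15 ARF genes and 13 of 19 Aux/IAA genes were higher in *hdt1*, and in libraries 2 and 4, 11 of 15 and 7 of 19 were lower. The signs were opposite between the library sets for 8 of 15 ARF genes and 7 of 19 Aux/IAA genes, against 43.8% of all genes tested, whereas 9 Aux/IAA genes were higher in *hdt1* in both library sets and 3 were lower in both. Apart from ARF9, ARF10 and ARF17, the ARF genes that were lower in *hdt1* were so in libraries 2 and 4 only. The wild-type libraries 2 and 4 carry most of the seed gene RNA, though SESA1 was higher in *hdt1*. The part of the seed material in these values was not tested.

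**Figure D3:**
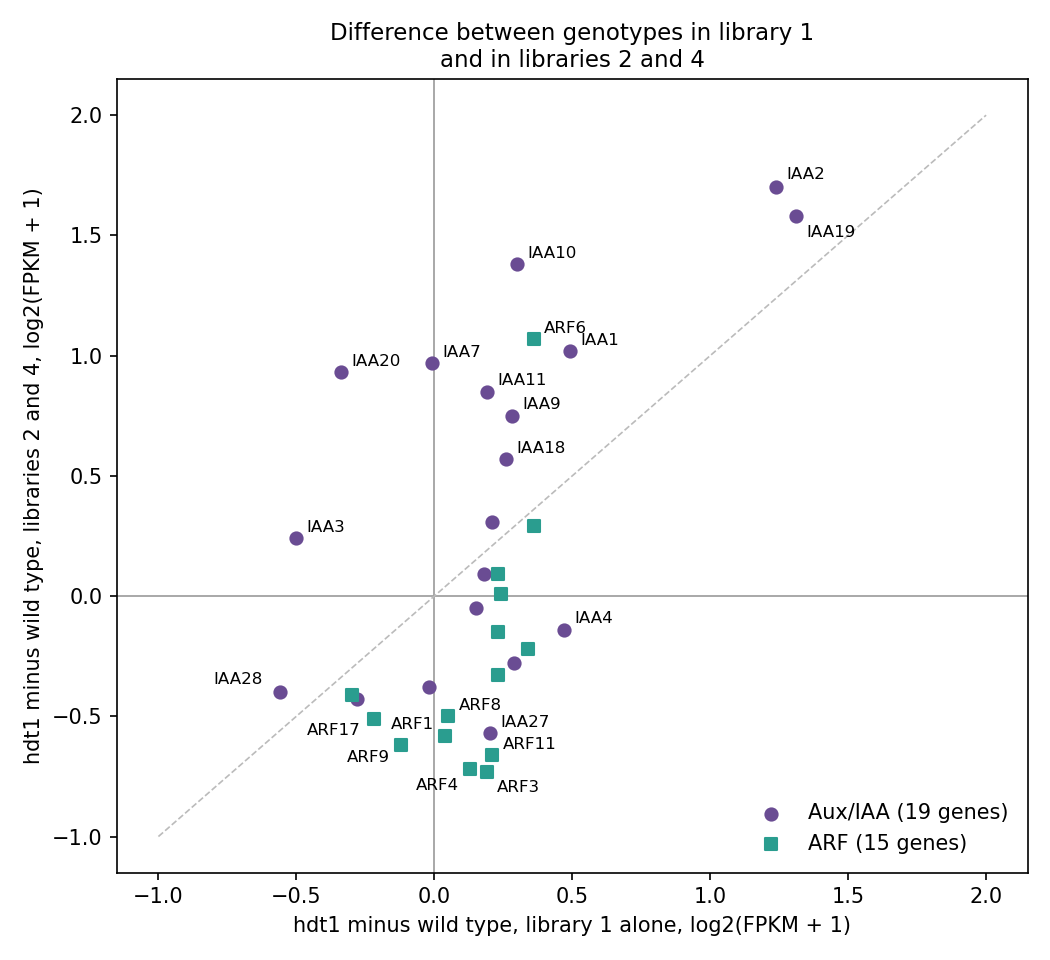
Difference in log2(FPKM + 1) between *hdt1* and the wild type for the 34 kept members, in library 1 (horizontal axis) and in libraries 2 and 4 (vertical axis), with a dashed line where the values are equal. IAA2 and IAA19 lie at the upper right, whereas 8 of 15 ARF genes lie below 0 on the vertical axis and above 0 on the horizontal axis. Signs were opposite between the library sets for 43.8% of all genes tested.

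The summed level per library set the Aux/IAA repressors beside the ARF factors. The ARF sum joins the 10 genes known as repressors with the 5 activators, so it is no measure of activators alone. The Aux/IAA genes summed to 1229, 1042 and 1007 FPKM in the wild type and to 1422, 1206 and 1282 in *hdt1*. The ARF genes summed to 389.5, 487.6 and 501.5 FPKM in the wild type and to 437.8, 428.7 and 409.6 in *hdt1*. The Aux/IAA sum over the ARF sum was 3.15, 2.14 and 2.01 in the wild type and 3.25, 2.81 and 3.13 in *hdt1*, so the groups overlapped through the wild-type library 1. The means were 2.43 ± 0.628 and 3.06 ± 0.225 (SD, n = 3 each). Without IAA9 and ARF2, the highest of each family, the ratio was 3.68, 3.11 and 2.95 in the wild type and 3.82, 4.06 and 4.46 in *hdt1*. The groups then no longer overlapped, but IAA2 stayed in this count. With all members, IAA2 made up 4.33 to 6.56% of the Aux/IAA sum in the wild type and 8.96 to 18.0% in *hdt1*. Without ARF2 the ARF genes summed to 277.5, 288.4 and 294.3 FPKM in the wild type and to 306, 239.9 and 233.3 in *hdt1*. A ratio without IAA2 was not computed. The part of single members in the separation, and a shift of the whole family, were not tested. In library 1 the difference between genotypes was small under either count. The ratio is one of RNA levels and carries no information on the proteins, whose amount depends on degradation.

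**Figure D4:**
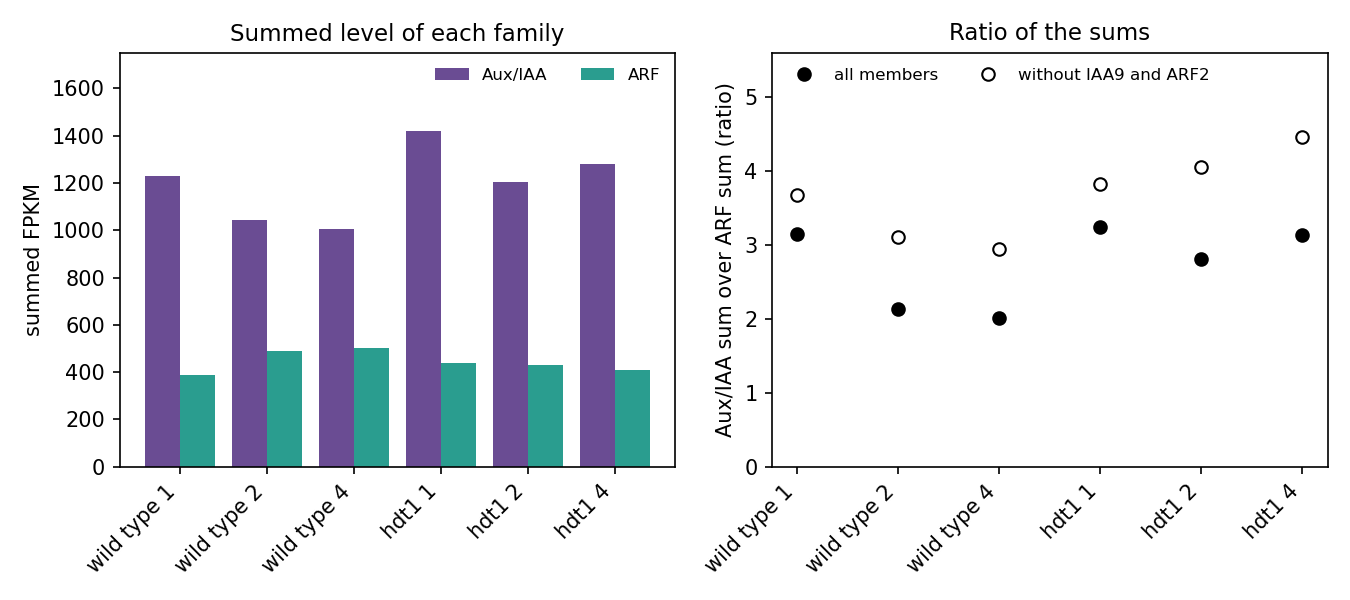
Summed FPKM (left, bars from 0) of the 28 Aux/IAA genes and the 15 ARF genes in each of the 6 libraries, and the ratio of these sums (right) with all members (filled) and without IAA9 and ARF2 (open). With all members the wild-type library 1, at 3.15, lies among the *hdt1* libraries, and the other wild-type libraries lie at 2.14 and 2.01.

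With a term for library 1 against libraries 2 and 4 in the limma fit, 5 of the 34 kept members passed at a Benjamini-Hochberg adjusted p under 0.05. IAA2 (adjusted p = 0.017), IAA19 (0.0201), IAA1 (0.0476) and ARF6 (0.0489) were higher and IAA28 (0.0499) was lower in *hdt1*. Of all genes tested 3.82% were called higher and 2.52% lower by this limma fit. IAA1, an early auxin-induced gene, was at 5.68, 0.964 and 1.24 FPKM in the wild type against 8.37, 3.37 and 3.12 in *hdt1*, which overlap because library 1 was high in both genotypes. IAA1, ARF6 and IAA28 lie at the edge of the threshold. When limma's voom on the recovered reads was used with the same term, IAA2, IAA19, IAA28 and ARF6 passed again, IAA1 did not (adjusted p = 0.0721), and IAA9 did (0.0467), while 9.75% of all genes passed. Single libraries also decided calls in the fit without the term: 3 members (IAA9, IAA19 and ARF6) passed without wild-type library 1, where 6.34% of all genes did, and 9 without *hdt1* library 1, IAA2 and IAA19 among them, where 11.1% of all genes did. The term takes libraries 2 and 4 as independent samples and the genotype difference as equal in both library sets, which the 8 ARF genes and 7 Aux/IAA genes with opposite signs do not show.

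The other parts of the auxin response were read from the same fit, in 6 lists of 39 genes of which 23 were kept. Without the library term 0 of the 23 passed the limma fit, and with it 3 did, where 6.34% of all genes tested passed. These 3 were the kept genes among 8 direct ARF targets, and all 3 were higher. The other 5 targets, TMO7, DOF5.8, LBD16, LBD18 and LBD29, were under the filter and not tested. TMO6, a DOF factor of vascular cells under ARF5, was at 8.41, 10.8 and 9.54 FPKM in the wild type against 20.5, 23.0 and 24.4 in *hdt1*. ATHB8, a homeobox factor of the procambium under ARF5, was at 6.08, 5.53 and 6.08 FPKM in the wild type against 11.1, 8.99 and 8.73 in *hdt1*. TMO5, a bHLH factor under ARF5, was at 2.53, 5.47 and 5.02 FPKM in the wild type against 5.25, 7.94 and 8.54 in *hdt1*, so its groups overlapped (ratio 2.07 for library 1, 1.57 for the rest). All 3 were higher in *hdt1* in each library set, and TMO6 and ATHB8 did not overlap between the genotypes, while ARF5 itself differed by a ratio of 1.13. Of all genes tested, 8.5% had each *hdt1* library above each wild-type library. The log2 fold changes were 1.16 for TMO6, 0.62 for ATHB8 and 0.65 for TMO5, with limma adjusted p of 0.157, 0.287 and 0.4 without the library term and 0.017, 0.0437 and 0.0439 with it.

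Of the 6 receptors, 0 passed with or without the library term. TIR1 was at 35.0, 45.8 and 48.3 FPKM in the wild type against 35.7, 20.2 and 17.8 in *hdt1*, level in library 1 and lower in libraries 2 and 4. AFB4 was at 6.02, 4.13 and 3.01 FPKM in the wild type against 6.66, 7.36 and 7.90 in *hdt1*, without overlap. None of the 5 TOPLESS-type co-repressors and none of the 6 subunits and activators of the ubiquitin ligase passed either limma fit, and the groups of all 11 overlapped. TPR2 and TPR3, with the smallest p of the co-repressors, had log2 fold changes of -0.32 and 0.45, and ECR1 and CUL1 of the ligase list each had -0.16.

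The GH3 and SAUR genes, many of them induced early by auxin, were mostly under the filter of 1 FPKM. Of 6 GH3 genes, which encode enzymes that conjugate auxin to amino acids, 2 were kept, and of 8 SAUR genes, which promote cell elongation, 1 was. GH3.5 was at 9.88, 13.9 and 15.7 FPKM in the wild type against 8.91, 4.89 and 4.36 in *hdt1*, without overlap (log2 fold change -1.04, limma adjusted p = 0.291), and GH3.6 had a log2 fold change of 0.36. SAUR24 had a log2 fold change of -0.65 with overlapping groups. GH3.3, which was not kept or tested, was at 0.222, 0.109 and 0.0583 FPKM in the wild type against 0.94, 0.289 and 0.356 in *hdt1*. It was higher in each mutant library. GH3.2, also not kept, was at 0.011, 0.53 and 0.579 FPKM in the wild type against 0.062, 0.276 and 0.199 in *hdt1*. It was higher in *hdt1* in library 1 but lower in libraries 2 and 4. Both genes were under 1 FPKM in every library. None of the 3 kept GH3 and SAUR genes passed the test in either direction, with or without the library term. The xylem marker sum, given above, was higher in *hdt1* in each library beside IAA2, IAA19, ARF6, TMO6 and ATHB8, and its part in these values was not tested.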

How the data were processed

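The authors deposited FPKM values per gene for 6 stem libraries, with HTSeq 0.6.1, Bowtie2 2.2.3 and TopHat2 2.0.12 listed in the submitters' processing notes. The study calls its unit RPKM. For the genome build and the counting's strand setting, a statement is not given in the sources used. Whole reads were recovered from the steps of the deposited FPKM values for 25373 of 25374 features above 0 (within 0.001 read), up to a rule for 782 features, ARF17 among them, whose length unit was multiplied to reach the coding length.

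Genes that reached 1 FPKM in 3 or more libraries entered a limma fit (version 3.58.1, R 4.3.3) of log2(FPKM + 1) with a mean-variance trend and Benjamini-Hochberg adjustment over 17906 genes. Fold changes on this log2 scale understate the change of low genes. The study's own test was not run. Python 3.11.15 with pandas 2.3.3 and NumPy 2.4.6 was used for tables and sequences. The members and lists were chosen with earlier results of these data known. Genes described per library were IAA2, IAA19, those without overlap and the 5 highest of each family. After their values were seen, IAA1, IAA7, IAA8, IAA13, IAA20, IAA3, IAA14 and IAA17 were named in addition. So were ARF8, ARF10, ARF16, ARF7, ARF18, ARF19, TMO5, GH3.2 and GH3.3. Of each other list up to 2 genes with the smallest p were named.

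Deviations of same-numbered libraries from their genotype means correlated at 0.56, 0.53 and 0.46, but the crossed numbers 2 and 4 did so too, at 0.51 and 0.54, so the numbers separate library 1 only, and no source says what they mark. The fit was tested on simulated data over 17906 genes in which library 1 differed alike in both genotypes. There 2-fold changes were found in 0% and 4-fold changes in 30% of cases, and in 52% and 88% with the library term. Without a library split in the simulated data, the main fit found 14% and 59%. The split data were drawn under the library term's own assumptions, so its higher recovery there does not show that the term suits the real libraries. The alternatives were another pseudocount (0.1), no filter, a mean of at least 5 FPKM, quantile and median-ratio scaling, blocking on the library number, the library term, each library set alone, voom on recovered reads and each library left out. Voom with the library term was added after seeing the data.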

Additional observations from a re-analysis of the deposited data

How the results depend on the processing

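The count of the 43 genes past the threshold was 0 in the main fit and stayed 0 with another pseudocount, no filter, the stricter filter, both scalings, the replicate block and voom. It was 5 with the library term (6.34% of all genes tested passed), 5 with voom and this term (9.75%), 27 in libraries 2 and 4 alone (65.9%) and 0 to 9 with 1 library left out: 3 without wild-type library 1 (IAA9, IAA19 and ARF6; 6.34%) and 9 without *hdt1* library 1 (11.1%). Libraries 2 and 4 alone hold nearly alike samples, and 4905 higher and 6904 lower genes passed there in all. The replicate block, a fit that pairs libraries by number, changed no call and left the medians at 0.28 for Aux/IAA and -0.32 for ARF. The Aux/IAA median was 0.11 with no filter, since genes near 0 FPKM enter, and 0.15 to 0.47 with 1 library left out. The ARF median was 0.21 in library 1 alone and -0.33 to -0.23 with 1 library left out. The ratio of the sums differed by 0.632 between the genotypes, by 0.867 without IAA9 and ARF2 and by 0.419 to 0.992 with 1 library left out. The 3 kept direct ARF targets passed with the library term (3 against 0), and the replicate block passed 0 of the other auxin genes. With voom and the library term, limma's adjusted p was 0.0113 for TMO6, 0.0278 for ATHB8 and 0.0415 for TMO5. In that fit 9.75% of all genes passed. Calls under the other settings are not given for these genes.

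Of the 17 members described by rule, IAA16, IAA26 and ARF2, with fold changes near 0, turned sign under another scaling or with 1 library left out: IAA16 (0.01 without wild-type library 2, and -0.27 to 0.01 with any 1 library left out), IAA26 (-0.06 and -0.05 without wild-type library 2 and 4, -0.26 without *hdt1* library 1) and ARF2 (0.05 with median-ratio scaling, 0.10, 0.13 and 0.13 without wild-type library 2, wild-type library 4 and *hdt1* library 1, and -0.31 to 0.13 with any 1 library left out). In library 1 alone the sign was opposite for 6 of the 17: IAA16 (0.29), IAA27 (0.20 against -0.31), ARF1 (0.04 against -0.38), ARF2 (0.23), ARF3 (0.19 against -0.42) and ARF4 (0.13 against -0.44). The causes were not tested. Genes with few reads, down to 7 in a library among the kept members, limit what can be said of IAA20, IAA1 and IAA14, and the 9 members left out had at most 72 reads in a library.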
